A study of Arabidopsis thaliana with 51 samples.

Results

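Flowers of M318 plants of Arabidopsis thaliana that carried the construct AGe were compared with flowers of M318 plants for which no construct is named. AGe plants were represented by 6 of the 51 bisulfite libraries of the series, chosen by their titles: 3 from flowers with the phenotype sMf and 3 from flowers with the phenotype rMf, each with replicates A, B and C. The 3 libraries of M318 plants with Wt flowers served as controls. All 9 of these libraries thus have the M318 background and the young flower as their tissue. AGe rMf and Wt flowers of M317 (6 libraries) and Col (4 libraries) are set beside them below. The linear model took its spread from these and from M317 AGe sMf and Col AGp Sterile, 23 libraries of 9 groups in all. The labels do not explain M317, M318, AGe, AGp, sMf or rMf. Each AGe replicate pooled flowers of 5 to 10 transformed lines that shared a flower phenotype. Its level is thus an average over lines, and lines with and without methylation cannot be told apart within a pool. Nothing in the labels says that replicates were grown separately.

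In plants, cytosines are methylated in 3 sequence contexts, written CpG, CHG and CHH, where H is A, C or T. CpG methylation is copied onto the new strand after replication by MET1, CHG methylation is kept by CMT3 together with histone methylation, and CHH methylation has to be set anew, by DRM2 guided by small RNAs in RNA-directed DNA methylation (RdDM) or by CMT2. RdDM sets methylation in all contexts and is known for silencing transgenes and promoters. AG (AT4G18960) encodes a MADS-box transcription factor that specifies stamens and carpels, and its large intron holds regulatory elements that control where it is expressed. The series title names an element acting against RdDM, abbreviated ARE.

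The deposited table lists methylation levels in whole percent for cytosines of a single region from 10374202 to 10391499 in TAIR10, without naming the chromosome. Its coordinates were assumed to be those around AG, which lies on chromosome 4 between AT4G18950 and AT4G18970 in the TAIR10.1 gene table. Whether a stretch lies in an exon, an intron or a UTR was not determined. After rows were brought into register, 5202 cytosines were analysed (547 CpG, 656 CHG and 3999 CHH). The table gives no read counts, so sequencing depth is unknown, and a cytosine listed at 0 may be unmethylated or may lack reads. The levels do not separate the AGe construct from the plant's own copy of the sequence. Replicate A of each group lies in the first 11 columns of its set (column block 1), and replicates B and C lie in the later 17 (column block 2).

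Levels were described over the AGe domain, a run of 2800 bp from 10384302 to 10387101 that was defined in a library of another genotype and construct (Col AGp//AGe sMf), which entered no test. It holds 757 analysed cytosines: 52 CpG, 65 CHG and 640 CHH. Among them the lowest level above 0 was 6%, 9% and 7% in M318 Wt A, B and C. It was 5% in sMf A but 1% in each of the remaining M318 AGe libraries. Levels of 1% to 4% were thus listed in those AGe libraries only, and whether depth differed between the groups was not tested. A cytosine was called where its adjusted p-value in limma, a linear model with a variance shared across cytosines, was under 0.05. The model was fitted on the log2 odds of methylation.

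M318 AGe flowers with the rMf phenotype were methylated across the AGe domain in every library. The mean level over all contexts was 28.7% in replicate A, 30.2% in B and 25.9% in C. In M318 Wt it was 1.16%, 0.395% and 0.602%. The lowest rMf library thus stood far above the highest Wt library. The difference was 27.5 percentage points, from 28.3% ± 2.18 (SD, n = 3) against 0.719% ± 0.396 (n = 3), and it was 27.5 points in column block 1 and 27.6 in column block 2. The two-sided exact permutation p was 0.1 (adjusted 0.4 over the 96 level differences), the smallest that 3 libraries against 3 can give.

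CHG was the most methylated context. Its rMf level was 45.7% in replicate A, 51.9% in B and 44.4% in C, against 2.08%, 0.415% and 1.11% in Wt. CHH cytosines, which make up most of the domain, were at 27.9%, 28.0% and 24.5% in rMf and at 0.912%, 0.397% and 0.492% in Wt. The 3 rMf libraries lay close together in CHG and CHH. CpG varied more among them, at 16.7%, 30.5% and 20.6%, against 3.06%, 0.346% and 1.33% in Wt. CpG, the context with the highest level in the CpG-only domain described below, was thus the lowest in the AGe domain in rMf replicates A and C. In each context the rMf and Wt libraries did not overlap, and each exact permutation p was 0.1 (adjusted 0.4).

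**Figure D1:**
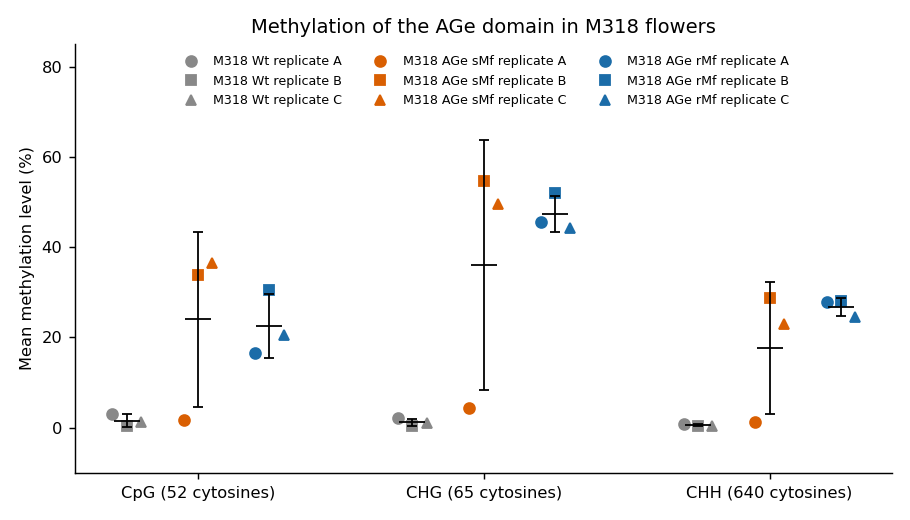
Mean methylation level of the AGe domain (vertical axis, percent) in each context for the 9 M318 libraries. Each symbol is a library, the short bar is the mean of a group and the error bar its SD (n = 3). The rMf libraries lie above all Wt libraries in each context, whereas sMf replicate A lies with Wt and sMf replicates B and C lie with rMf.

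Most cytosines of the domain rose. limma called 615 of the 2341 cytosines tested higher in rMf than in Wt (26.3%), and 587 of these were among the 757 of the AGe domain (77.5%). By context the domain's calls were 28 of 52 CpG, 52 of 65 CHG and 507 of 640 CHH, all higher and none lower. The median difference was 6.43 log2 odds units for CHG, 4.87 for CHH and 3.45 for CpG. All 3 rMf libraries exceeded all 3 Wt libraries at 631 of the 757 cytosines (83.4%), against 27.5% of all cytosines tested. The latter share is 644 cytosines, which include these 631. Any gap counts here, so 1% in rMf against 0 in Wt is enough. At least 92.2% of the domain's cytosines were at 0 in each Wt library. The same rule was used for such counts in sMf below. Shares of all cytosines tested, here and for sMf, include the domain's own cytosines and are thus no separate background. Cytosines were tested if above 0 in 2 or more of the 23 libraries, AGe libraries among them. All 757 of the domain were tested, and rMf replicate B alone was above 0 at each. Cytosines of the domain could thus enter through the groups in which they are high.

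The CpG at 10386965 was at 92%, 87% and 86% in rMf replicates A, B and C and at 0 in all 3 Wt libraries (limma log2 odds difference 9.51 ± 1.89 SE, adjusted p = 0.00137). The CpG cytosines at 10386326 and 10386327 form a dyad, a pair that face each other on opposite strands. There the plus strand was at 85%, 86% and 81% and the minus strand at 90%, 84% and 81%, again against 0 in Wt (limma adjusted p = 4.12e-06 and 0.000818). These were the 3 CpG calls with the largest gain in mean level.

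Among CHG cytosines the largest gain was at 10386300, with 89%, 84% and 85% in rMf and 0 in each Wt library (limma log2 odds difference 9.21 ± 1.17 SE, adjusted p = 0.000134). Its partner on the minus strand, 10386302, was at 85%, 77% and 75%, and the CHG at 10386950 at 83%, 76% and 77% (limma adjusted p = 0.000739 and 0.00328). Single CHH cytosines also reached high levels. The CHH at 10386051 was at 69%, 60% and 82% in rMf, with 17% in Wt replicate A and 0 in Wt B and C (limma adjusted p = 0.00846), and the CHH at 10386044 was at 67%, 66% and 74%, with 14% in Wt A (limma adjusted p = 0.00649). At 10386182 the levels were 70%, 61% and 56% against 0 in every Wt library (limma log2 odds difference 7.38 ± 0.587 SE, adjusted p = 3.83e-07). All 9 of these cytosines lie in the last 1200 bp of the domain. Where Wt is at 0, the size of a log2 odds difference is set in part by the offset of 0.01 and should not be read as a limit.

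The 3 contexts also differed in how levels were spread over single cytosines. Among CpG cytosines of the AGe domain, the median was 4% in rMf replicate A, 21% in B and 8% in C, while 5, 4 and 6 of the 52 were at 80% or more. Low averages in this context therefore went with a few highly methylated cytosines and many nearly unmethylated ones. CHG medians were 55%, 60% and 55%, with 34, 41 and 36 of 65 cytosines at 50% or more. CHH cytosines were mostly intermediate, with medians of 25%, 28% and 24%, and 6, 0 and 2 of 640 at 80% or more. Replicate A of rMf stood out by cytosines at 0, with 87 of 757, whereas B had 0 and C had 26. It also had the most at 50% or more, 172 against 113 in B and 105 in C.

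**Figure D2:**
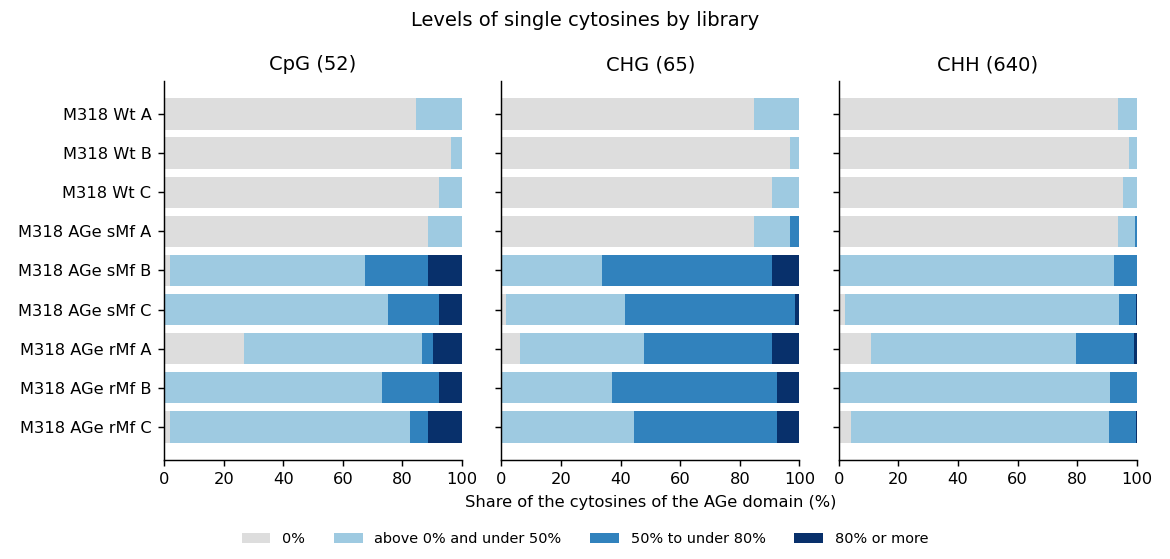
Share of the cytosines of the AGe domain (horizontal axis, percent) in 4 ranges of methylation level, for each of the 9 M318 libraries and each context, with the number of cytosines in brackets. In the Wt libraries and sMf replicate A at least 84.6% of the cytosines of each context are at 0. In the other 5 libraries at least 52.3% of CHG cytosines are at 50% or more but at most 20.5% of CHH cytosines are.

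Methylation of the symmetric contexts was on both strands. In rMf the 26 CpG dyads of the domain had a plus-strand mean of 16.7% in replicate A, 31.2% in B and 20.2% in C, and a minus-strand mean of 16.6%, 29.7% and 21.0%. The median difference between the strands of a CpG dyad was 3, 2 and 2 percentage points. For the 29 CHG dyads the strand means were 46.8% and 50.3% in A, 56.3% and 54.2% in B and 46.1% and 48.5% in C, with a median strand difference of 5 points in each. The strands lay within 10 points of each other at 23, 25 and 25 of the 26 CpG dyads in rMf A, B and C, and at 24, 28 and 18 of the 29 CHG dyads. Most dyads thus had similar levels on both strands, least often the CHG dyads of rMf C. Across CpG dyads Pearson's r between the strands was 0.968 to 0.993 in rMf, and across CHG dyads 0.934 to 0.966. These are descriptions across neighbouring dyads of single libraries. CHH cytosines, which have no partner, did not favour a strand either: the 302 on the plus strand averaged 27.2%, 28.0% and 24.3% in the rMf replicates and the 338 on the minus strand 28.5%, 28.0% and 24.6%.

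The dyads spanned almost the full range of levels. The CpG dyad at 10386965 and 10386966 was the highest, at 87.0% ± 2.29 (SD, n = 3 rMf libraries) over both strands, followed by 10386326 and 10386327 at 84.5% ± 3.28 and 10386771 and 10386772 at 76.3% ± 6.29. The lowest CpG dyads, at 10385559, 10385476 and 10385441 (plus-strand positions), averaged 1.17%, 1.5% and 1.67%. All 3 lie in the low stretch described below. The highest CHG dyad, at 10386300 and 10386302, reached 82.5% ± 3.91, and the lowest, at 10385645 and 10385647, 3% ± 4.36. The largest strand differences were in CHG. At 10384633 and 10384635 the plus strand was at 18%, 41% and 32% in rMf A, B and C and the minus strand at 44%, 45% and 52%. At 10386755 and 10386757 the plus strand was at 55%, 35% and 45% and the minus strand at 68%, 44% and 67%, so the minus strand was the higher in every rMf library at both dyads.

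**Figure D3:**
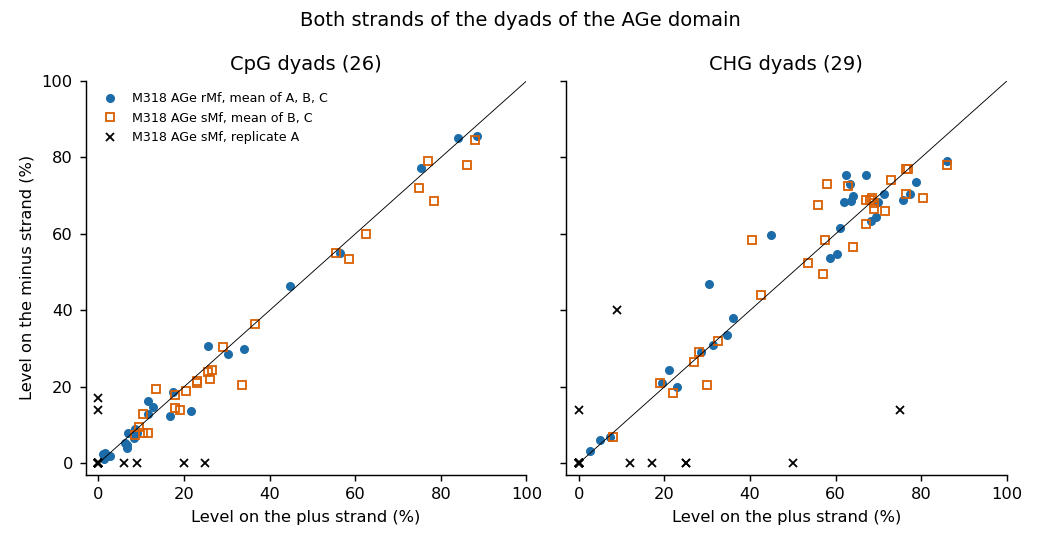
Methylation level of the plus strand (horizontal axis, percent) against the minus strand (vertical axis, percent) at the 26 CpG and 29 CHG dyads of the AGe domain. Filled circles are means of the 3 rMf libraries, open squares means of sMf replicates B and C, crosses sMf replicate A, and the line marks equal levels. Circles and squares follow the line from low to high levels, whereas the crosses lie mostly on an axis or at 0.

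Along the domain, methylation formed an initial stretch and a final stretch with a low stretch between them. The first 1000 bp averaged 30.1%, 37.7% and 28.5% in rMf replicates A, B and C. The next 600 bp, from 10385302 to 10385901, averaged 3.93%, 14.5% and 4.31%. The last 1200 bp, from 10385902 to 10387101, averaged 39.0%, 31.3% and 33.8%. The low stretch was thus the lowest of the 3 in each rMf library, but less so in B. It was low in each context in A and C, with CpG at 2.41% and 5.41%, CHG at 7.75% and 7% and CHH at 3.82% and 3.84%. The few CpG cytosines of the first 1000 bp, 4 in all, were low in these libraries too, at 7.75% and 6.25%, so for CpG the contrast was with the last stretch. A narrower dip lay within the last stretch, where rMf A, B and C were at 5.79%, 17.5% and 6.31% from 10386502 to 10386601, lower than some windows of the low stretch. The bounds of the 3 stretches were chosen after the profile was seen, so their contrast is a description.

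Windows of 100 bp were also taken by context. Among windows with at least 3 cytosines of a context, the CpG window with the largest difference from Wt, from 10386902 to 10387001, was at 68.0%, 69.2% and 76.8% in the rMf replicates, with 11% in Wt C and 0 in Wt A and B, and its CHG cytosines were at 74.0%, 63.0% and 69.0%. Both values come from few cytosines, 4 CpG and 3 CHG, and some windows with fewer cytosines were higher. The 2 CpG cytosines from 10386702 to 10386801 were at 75.5%, 70.5% and 83.0%. The CHH windows with the largest differences began at 10386202 (59.3%, 36.5% and 44.9%), 10386002 (51.7%, 40.0% and 56.0%) and 10384902 (67.0%, 37.2% and 33.2%). The 3 CHH windows with the smallest differences adjoin each other from 10385402 to 10385701, inside the low stretch, with mean rMf levels of 2.16% to 3.42% against 0.175% to 0.560% in Wt.

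Replicate B of rMf had a flatter and wider profile than A and C. Its 28 domain windows ranged from 5.58% to 48.2%, those of A from 0.417% to 67.7% and those of C from 1.15% to 56.0%. The SD of the windows divided by their mean was 0.353 in B, 0.754 in A and 0.664 in C. Windows at 10% or more ran from 10384202 to 10387201 in B, from 10384302 to 10387101 in A and from 10384402 to 10387101 in C. In the 200 bp before the domain, B was at 16.8%, A at 2.08% and C at 1.29%. The 3 Wt libraries were at 0.323% to 0.871% there.

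**Figure D4:**
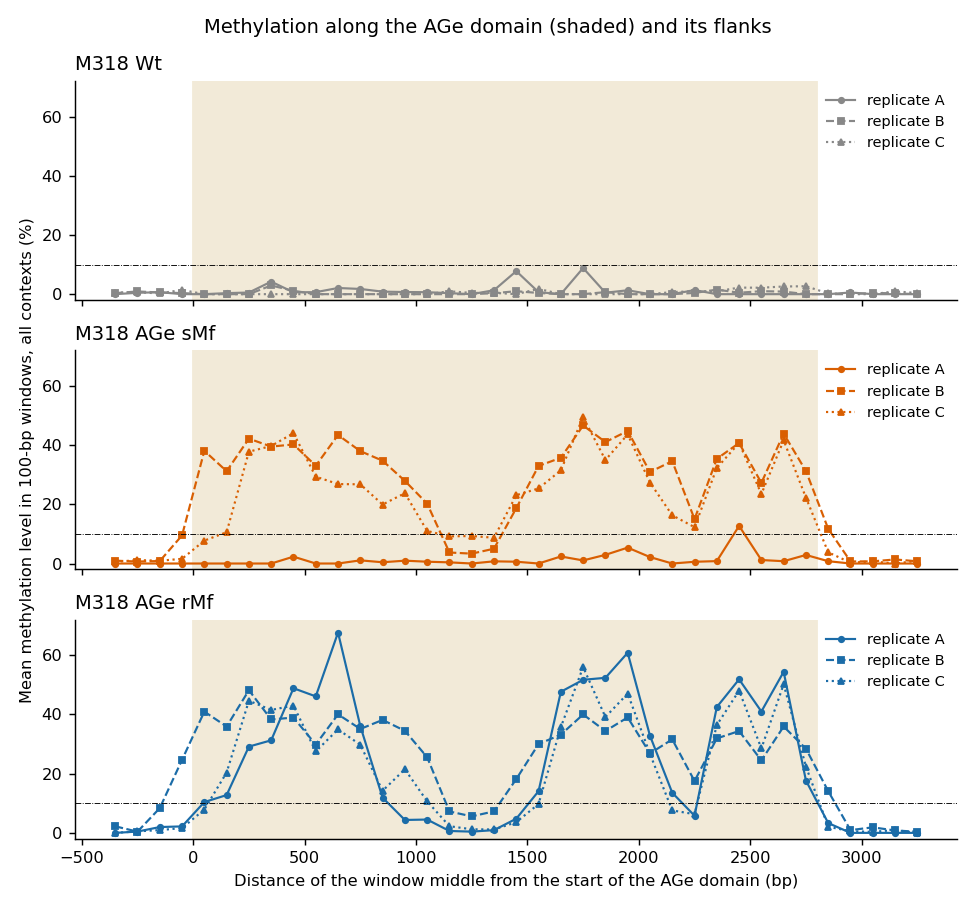
Mean methylation level of 100-bp windows over all contexts (vertical axis, percent) against the distance of the window's middle from the start of the AGe domain (horizontal axis, bp), with the domain shaded and a line at 10%. Each line is a library. The rMf libraries and sMf replicates B and C dip between their higher ends, replicate B of each phenotype begins earliest, and sMf replicate A passes 10% in 1 window.

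The sMf libraries were not alike. Over the AGe domain replicate A was at 1.54%, B at 31.4% and C at 26.2%, whereas Wt ranged from 0.395% to 1.16%. Replicates B and C lay within or just above the range of rMf, while replicate A lay 0.375 points above the highest Wt library, which is in the same column block. With all 3 libraries the difference from Wt was 19.0 points (19.7% ± 15.9, SD, n = 3, against 0.719% ± 0.396), and the exact permutation test gave its smallest p, 0.1 (adjusted 0.4). In column block 1 it was 0.375 points, and in column block 2 it was 28.3, where the sMf libraries are B and C. Without replicate A the sMf mean was 28.8% ± 3.65 (n = 2) and the difference from Wt 28.1 points.

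By context, CHG in the AGe domain was at 4.32% in sMf replicate A, 54.7% in B and 49.5% in C. CHH was at 1.23%, 28.8% and 23.0%, and CpG at 1.75%, 33.8% and 36.4%. The CpG level of replicate A lay inside the range of Wt, and its CHG and CHH levels lay above that range, whose highest values were 2.08% and 0.912%. Replicates B and C had CHG as their highest context, as rMf did.

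With all 3 sMf libraries limma called 321 of 2341 cytosines higher than in Wt (13.7%), 312 of them in the AGe domain. In the domain, 50 of 757 cytosines (6.61%) had all sMf libraries above all Wt libraries, against 2.26% of all cytosines tested. Replicate A is set apart because it is near Wt, so values against Wt without it are chosen by the outcome and are given as a description. When it was left out, 705 of 2324 were called higher (30.3%), of which 677 were in the AGe domain, namely 42 of 52 CpG, 62 of 65 CHG and 573 of 640 CHH. Both remaining sMf libraries then exceeded all Wt libraries at 719 of the 757 (95%), against 33.0% of all cytosines tested, and 7 cytosines outside the domain were called lower (0.301%). Leaving out another library of the comparison in turn gave 43 to 51 higher calls, and a fit of sMf and Wt alone gave 6, so the count with all 3 depends on each library and on the spread taken from other groups.

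Without replicate A, the cytosines with the largest gains in sMf were largely those named for rMf. The CpG at 10386965 was at 90% and 86% in sMf B and C, the CHG at 10386300 at 87% and 85% and the CHH at 10386051 at 66% and 86%. The CHH at 10386073, not among those named for rMf, was at 65% and 61% in sMf B and C and at 57%, 57% and 70% in rMf A, B and C, against 0 in Wt. The Wt libraries are shared by these comparisons.

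Replicate A of sMf was looked at on its own, since it lay near Wt. Of its 757 cytosines in the AGe domain 57 were above 0, against 59, 21 and 39 in Wt replicates A, B and C. In sMf A, 51 cytosines lay above all 3 Wt libraries, and in Wt A 54 lay above the other two Wt libraries. The number of cytosines above 0 was thus no larger than in Wt A. The counts of 51 and 54 were made against unlike numbers of libraries, with the stricter bar for sMf A. The number at 20% or more was 25 in sMf A and 12, 3 and 7 in Wt. The lowest level above 0 in the domain was 5% in sMf A and 6%, 9% and 7% in Wt, but 1% in each of the other 5 AGe libraries. Depth, which is unknown, and the share of methylated lines in this pool were not tested as sources of its level.

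The highest levels of sMf A in the domain lay in 1 window. From 10386702 to 10386801, where 15 of its 57 cytosines above 0 lay, it averaged 12.7% over 37 cytosines, against 0, 0.486% and 2.22% in Wt, and no other window of the domain reached 10%. The next were the windows from 10386202 at 5.37% and from 10386102 at 2.93%. In the top window the plus strand was at 20.0% (20 cytosines) and the minus strand at 4.12% (17 cytosines), whereas in rMf replicate A they were at 48.0% and 56.4%. The CHG at 10386748 was at 75% in sMf A, 70% and 67% in sMf B and C and 79%, 65% and 66% in rMf, against 0 in Wt. The CHG at 10386740 was at 50% in sMf A and at 60% to 73% in the other 5, and the CHH at 10386730 at 50% and at 44% to 63%. At the CHH cytosines 10386739 and 10386743, sMf A was at 50% and the other AGe libraries at 20% to 40%. These cytosines all lie on the plus strand between 10386730 and 10386748. The same few reads may cover them, so they are not independent sites. On the minus strand, the partner of 10386740 was at 0 in sMf A and that of 10386748 at 14%.

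Plus and minus strands differed in sMf A over the whole domain too. Its 302 CHH cytosines on the plus strand averaged 2.21% and its 338 on the minus strand 0.361%. Wt A and B had an imbalance in the same direction, at 1.73% and 0.183% in A and 0.712% and 0.115% in B, and Wt C the opposite one, at 0.281% and 0.680%. Of the CHG dyads of sMf A, 2 of 29 were above 0 on both strands and 6 on a single strand, and of its CpG dyads 0 of 26 and 6. In rMf A, by comparison, 26 CHG and 18 CpG dyads were above 0 on both strands.

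Outside the AGe domain, the 5 cytosines at which sMf A stood farthest above Wt were listed at 0 in the other AGe libraries. The CHH at 10375811 was at 100% in sMf A, the CpG at 10388060 at 60% and the CpG cytosines at 10380590, 10380548 and 10380568 at 67%, 50% and 50%. In Wt only 10388060 was above 0, at 6% in Wt C. The last 3 lie in a run from 10379482 to 10381575, whose 523 analysed cytosines were at 0 in every other M318 library described here. sMf A was above 0 at 11 of them, all on the minus strand between 10380548 and 10380704. At 5 of those 11 a Col Wt library was above 0 too, among them the CpG at 10380691, at 50% in sMf A and at 43% and 44% in Col Wt A and C. Whether the other M318 libraries had reads in this run cannot be told from the table.

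Flowers with the sMf and rMf phenotypes were then compared with each other. Over the AGe domain the difference was -8.57 points with all libraries (exact permutation p = 0.7, adjusted 0.946), and 0.515 points in the other direction without sMf replicate A. Within column block 2 it was 0.721 points. limma called 1 of 2341 cytosines (0.0427%), the CHG at 10388310 outside the domain, at 20%, 6% and 11% in sMf A, B and C and at 0 in all rMf and Wt libraries (limma log2 odds difference 3.79 ± 0.297 SE, adjusted p = 2.52e-06). At an unadjusted p under 0.05 there were 113. The call at 10388310 was lost in other fits. Its limma adjusted p was 0.946 with sMf and rMf alone in the fit, 0.293 without realignment and 0.0659 on untransformed levels. No cytosine of the AGe domain was called, and a missed threshold does not show that the phenotypes had the same level. Without sMf replicate A limma called 6 of 2324 (0.258%), none in the domain and all at 0 in rMf. In the domain 26 of 757 cytosines had both of these sMf libraries above all rMf libraries, against 1.81% of all cytosines tested. Leaving out sMf replicate B instead gave 16 calls, 15 of them lower in sMf, and leaving out rMf replicate A gave 10, 9 of them lower.

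CpG was the context in which sMf replicates B and C lay above the rMf libraries. They were at 33.8% and 36.4%, and the highest rMf library, B, was at 30.5%. Much of the excess of replicate C was in the low stretch, where its 22 CpG cytosines averaged 33.1%, against 17.0% in sMf B and 2.41%, 17.5% and 5.41% in rMf A, B and C. Its 12 CHG cytosines there were also the highest in sMf C, at 32.3%, against 27.4% in sMf B and 7.75%, 27.8% and 7% in rMf A, B and C. CHH of the low stretch was at 8.69% in sMf C, between the rMf values of 3.82% and 12.6%. At the CpG dyad 10385559 and 10385560 sMf C was at 27% and 37%, whereas sMf B and the rMf libraries were at 0 to 3%. These values were singled out after they were seen, and no test was made of them.

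The profile of each AGe library across the 757 cytosines was set against the others. The closest pair was replicate B of sMf and replicate B of rMf, with a Pearson's r of 0.948. Replicates C of the 2 phenotypes followed at 0.859, then rMf A and rMf C at 0.848 and sMf B and sMf C at 0.825. The least alike pair without sMf A was rMf A and rMf B, at 0.600. Both closest pairs thus joined libraries of different phenotypes. In CHH cytosines alone the r was 0.928 for the B pair, 0.882 for the C pair and 0.510 for rMf A and rMf B. sMf A correlated with the others at 0.139 to 0.209. Replicates B and C share a column block, the cytosines are neighbours, and no p is given.

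**Figure D5:**
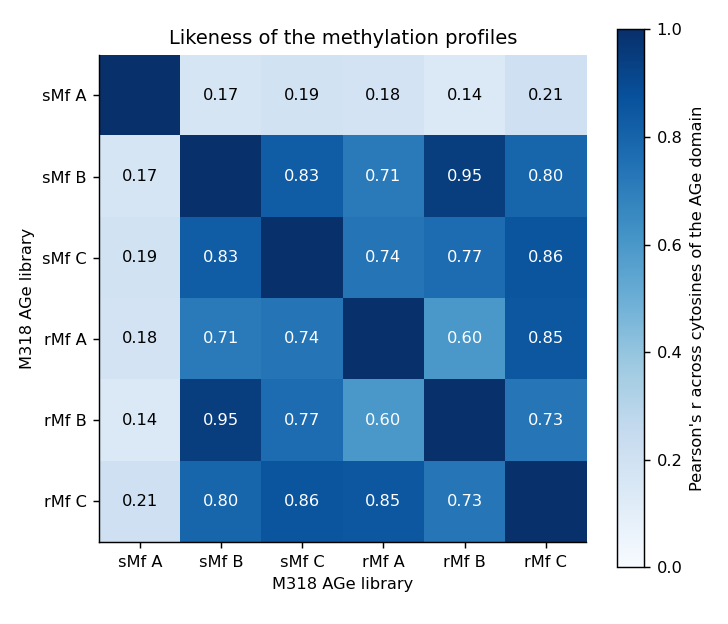
Pearson's r across the 757 cytosines of the AGe domain for each pair of the 6 M318 AGe libraries (rows and columns). The B replicates of both phenotypes are the closest pair at 0.95 and sMf replicate A is far from all others.

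Methylation stopped close to the domain's ends. In the 1000 bp before it the rMf libraries averaged 0.633%, 5.01% and 0.507% and the Wt libraries 0.162% to 0.463%, and most of the level of rMf B lay in the last 100 bp, at 24.7%. In the 100 bp after the domain the levels were 3.31%, 14.1% and 2.06% in rMf A, B and C, 0.781%, 11.7% and 3.78% in sMf A, B and C, and 0, 0 and 0.250% in Wt. The B libraries were thus the highest at both ends. limma called 11 of 102 cytosines higher in rMf in the 1000 bp before the domain and 6 of 69 in the 1000 bp after it. In the latter 1 CpG was called lower. In the rest of the region outside the domains and these flanks, 11 of 806 were higher and 9 lower.

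The other domains, defined in the same Col AGp//AGe sMf library, showed no such gain outside the run listed at 0. In the CpG-only domain, from 10377002 to 10377501, 24 CpG cytosines were at 65.2%, 59.4% and 67.0% in Wt A, B and C, at 59.5%, 63.2% and 61.2% in sMf and at 56.7%, 68.4% and 64.1% in rMf. These groups overlapped, with differences from Wt of -2.51 points for sMf and -0.778 for rMf (exact permutation p = 0.4 and 0.9, adjusted 0.835 and 1.0). No CpG there was called in either comparison, but 3 of 33 CHH cytosines tested were called lower in rMf and 2 lower in sMf. CHG and CHH in that domain were at most 1.23% in any library. In the AGp domain, from 10380602 to 10382801, the 342 cytosines outside the run listed at 0 averaged 0.0556% to 0.512% in Wt, 0.269% to 0.605% in sMf and 0.0994% to 0.781% in rMf. limma called none of the 299 cytosines tested there in rMf or in sMf, except 7 CHH higher in sMf when replicate A was left out. Another 239 tested cytosines of the AGp domain lie in the run, where the Wt and rMf libraries are all at 0, and say nothing about a change.

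Lower calls were few. limma called 13 of 2341 cytosines lower in rMf than in Wt (0.555%) and 8 lower in sMf (0.342%), none in the AGe domain. All 13 were at 0 in every rMf library, and at 11 of them a Wt library was at 0 too, so the call rests on the other Wt libraries. The CpG at 10390587 was at 12%, 55% and 50% in Wt A, B and C and at 0 in rMf (limma log2 odds difference -5.83 ± 1.63 SE, adjusted p = 0.0117), and it was at 0, 20% and 0 in sMf. Its limma adjusted p was 0.0512 without Wt replicate B and 0.407 without realignment. The CHG at 10389787 was at 9%, 12% and 6% in Wt and at 0 in rMf (limma adjusted p = 0.0086, and 0.257 without realignment). With rMf and Wt alone in the fit, limma called 2 of 990 cytosines lower in rMf.

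The gain in rMf was set beside that in plants of other backgrounds with the same construct and phenotype. M317 AGe rMf was at 29.3% ± 2.32 (SD, n = 3) over the AGe domain and M317 Wt at 1.80% ± 1.90 (n = 3), and Col AGe rMf was at 34.8% ± 2.28 (n = 2) and Col Wt at 1.08% ± 0.562 (n = 2). The lowest Col AGe rMf library, at 33.2%, was above the highest M318 AGe rMf library, at 30.2%. CHG was the highest context in each, at 48.6% ± 3.66 in M317 and 54.6% ± 2.61 in Col, and Col CpG, at 33.2% ± 2.67, lay above all 3 M318 rMf libraries. limma called 0 of 2341 cytosines (0%) for a difference between the effects of AGe rMf in M318 and in M317, with 60 at an unadjusted p under 0.05. Between M318 and Col it called 4 (0.171%), all in the AGp domain within the run listed at 0, and 0 without that run, with 75 at an unadjusted p under 0.05. Leaving out single libraries moved these counts to between 0 and 9 for M317 and between 4 and 40 for Col, the most without Col AGe rMf replicate B.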

How the data were processed

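The authors deposited methylation levels as signed whole percent values, whose sign marks the strand, for 5709 cytosine entries in 51 libraries. The submitters' processing notes name FastQC 0.11.9, Bismark, HISAT2 and TAIR10 without roles. The sources used here give neither a coverage minimum nor a bisulfite conversion rate. The 23 columns of other sets were not used.

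Signs were removed for levels. In the 17 later columns of the set rows slip against the coordinates, so a hidden Markov model of the signs realigned them. As deposited, the expected sign was found in 65.1% of rows. The sizes of the levels did not enter the model. After it Pearson's r between rMf A and B over all 5202 cytosines was 0.816, from 0.664 before. Within the AGe domain alone it was 0.600 after realignment. Left out were 68 rows sharing a coordinate and 439 that the realignment did not place with a posterior of at least 0.9. No pair of libraries held identical values. Domains are runs of at least 5 windows of 100 bp at 10% or more, bridging up to 5 lower windows.

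limma 3.58.1 in R 4.3.3 was fitted with a variance trend to log2((p + 0.01)/(1 - p + 0.01)), p being the level as a fraction, over 23 libraries of 9 groups and 2341 cytosines (those above 0 in 2 or more of these libraries), with Benjamini-Hochberg adjustment over all. Realignment and model were tested on simulated data. Level differences were tested with two-sided exact permutation tests over libraries. P-values measure the spread between these libraries, which may be technical. Named cytosines are the 3 calls per context and direction with the largest change whose libraries do not overlap; for sMf A they are the 5 with the largest gap above Wt in and outside the domain. Named windows, with at least 3 cytosines of the context, are the 3 with the largest and smallest rMf minus Wt, and named dyads the 3 highest, lowest and most unequal between strands in rMf. Members, domains and rules were chosen with earlier results of these data known.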

Additional observations from a re-analysis of the deposited data

Results flagged for a closer look

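At 4 CHH cytosines limma found the effect of AGe rMf to differ between M318 and Col. The differences in log2 odds were -4.91 at 10380658, 4.42 at 10380722, 4.42 at 10380724 and 5.05 at 10380725 (limma adjusted p = 1.15e-09, 6.44e-09, 6.44e-09 and 0.00185). All 6 M318 Wt and AGe rMf libraries were at 0 at each. At 10380658 Col AGe rMf A and B were at 20% and 25% and both Col Wt libraries at 0. At the other 3 both Col AGe rMf libraries were at 0, and Col Wt A and C were at 14% and 20%, 14% and 20%, and 29% and 20%. These cytosines lie in the run listed at 0 in M318, and the part of missing reads in these calls was not tested. Groups of 3 libraries are too small for a test of single outlying libraries.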

How the results depend on the processing

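Over all contexts pooled, the gain of the AGe domain in rMf and in sMf kept its direction under every alternative run (CpG of sMf alone was -1.31 points from Wt within column block 1), and no level difference could pass 0.05. Over libraries left out in turn it ranged from 26.6 to 28.7 points for rMf and from 13.1 to 28.1 for sMf. For sMf against rMf it ranged from -14.4 to 0.515, turning without sMf replicate A, and it was 0.721 in column block 2 alone. In the AGp domain rMf minus Wt was 0.136 points, -0.057 in column block 2 alone and -0.0482 without rMf A, up to 0.292 without another library. In the CpG-only domain CpG of rMf minus Wt was 3.08 in column block 2 alone, 2.42 without rMf A, 0.778 without Wt C and -3.45 at the lowest.

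The limma calls of rMf against Wt, 628 in both directions, ranged from 540 to 654 without single libraries and stayed within 1.5 times under the other alternatives. Those of sMf against Wt, 329, were 49 with no filter, 576 with cytosines above 0 in at least 6 libraries, 201 with an offset of 0.05, 36 on untransformed levels, 172 without realignment and 6 when no other groups entered the fit, and ranged from 44 to 712 without single libraries. For sMf against rMf there were 0 calls with that stricter filter, on untransformed levels, without realignment or with the groups alone, and 2 to 16 without single libraries. For M318 against M317 there was 1 call with an offset of 0.002 and 0 to 9 without single libraries. For M318 against Col there were 0 with the stricter filter or without the run listed at 0, and 4 to 40 without single libraries. Beyond the libraries left out and the smaller sets of cytosines or libraries, the causes were not tested.

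Replicate letters did not meet the bar for pairing, a correlation over 0.1 in every pair: same-letter deviations correlated at -0.0465 to 0.0294 for rMf with Wt, and at -0.116 to -0.0512 for sMf with Wt. For sMf with rMf the correlations were 0.0377, 0.192 and -0.0381 for A, B and C, so only B passed it. These deviations were taken over all 5202 cytosines. Within the AGe domain the closest profiles of sMf and rMf shared a letter (r = 0.948 for B and 0.859 for C), so pairing is not excluded. With a replicate block for the letters, limma called 684 for rMf against Wt, 455 for sMf against Wt, 1 for sMf against rMf, 0 for M318 against M317 and 4 for M318 against Col. Blocked level differences kept the same values, with exact sign-flip p of 0.25 or more, the smallest 3 pairs can give. Over the 21 tests of named cytosines, 319 repeats kept the call, 16 lost it and none turned. Of these, the CpG at 10386772 in sMf lost it without Wt A, Wt B, sMf B or sMf C.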
